A study of Homo sapiens with 12 samples.

Results

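This account follows 10 of the 56632 genes in the files, named by symbol: FOS, FOSB, FOSL1 and FOSL2 of the Fos family, JUN, JUNB and JUND of the Jun family, and ATF3, EGR1 and IER2. They were chosen as the AP-1 genes and their immediate early companions, with no measured value in the rule, and all 10 were among the 16275 genes that passed the filter on low counts. RNA was sequenced from 3 sucrose gradient fractions of MCF10A, a line of human breast epithelial cells that does not form tumours, in 2 genotypes with 2 libraries for each genotype and fraction, 12 in all. The free fraction holds mRNA without ribosomes, mono holds mRNA on a single ribosome, and poly is the pooled polyribosomal fraction. WT cells were unedited, and CBFB_KO cells carried a CRISPR-Cas9 knockout of CBFB, the non-DNA-binding partner of the RUNX factors, and were grown from single-cell colonies, so the genotype cannot be told apart from the history of a colony. Both genotypes grew in medium with 5% horse serum, 20 ng/ml EGF, insulin, hydrocortisone and cholera toxin. Both were treated with 100 µg/ml cycloheximide for 30 min, harvested with trypsin and separated on 10 to 50% gradients. Nothing in the labels says that the libraries of a group came from separate cultures, so p-values measure the spread between these libraries.

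AP-1 is a dimer of a Jun protein with a Fos, Jun or ATF protein, joined through a leucine zipper, which binds short palindromic sites in promoters and enhancers. Growth factors acting through MAP kinase cascades switch on many, not all, genes of this group within minutes and without new protein synthesis. At FOS, EGR1 and JUNB this goes through serum response factor and its cofactors. The mRNAs of such genes are short-lived, in part through AU-rich elements in the 3′ untranslated region (3′ UTR), and inhibitors of translation such as cycloheximide are known to raise them. In mammary epithelium AP-1 factors are known for roles in proliferation, wound response and invasion. The comparison of fractions asks how each of these mRNAs was spread between ribosome-free and ribosome-bound RNA, and whether that spread differed without CBFB.

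Every member except IER2 had the core of an AU-rich element, AUUUA, in the 3′ UTR of its main GENCODE transcript. The counts were 9 in FOSL2, 5 in FOS, 3 each in FOSB, JUN and ATF3, 2 in JUNB, 1 each in FOSL1, JUND and EGR1, and 0 in IER2, against a median of 2 over the coding genes tested. The stretches below show the Fos family, whose members went in opposite directions in the free fraction. Each is the 30-base window with the most AUUUA in that 3′ UTR, read 5′ to 3′ from the mRNA strand with T for U and with the cores in capitals.
FOS: tgtgtttttaATTTATTTAttaagatggat
FOSB: cctgctggagtgATTTAtactgtgaaatga
FOSL1: agggcagctgctATTTAttttcctaaagag
FOSL2: attgacATTTAttttattATTTAttttaaa
The windows lie in the GRCh38 build at chr14:75282058-75282087 on the plus strand for FOS, chr19:45473877-45473906 on the plus strand for FOSB, chr11:65892271-65892300 on the minus strand for FOSL1 and chr2:28416349-28416378 on the plus strand for FOSL2. In FOS the 2 cores overlap by 1 letter, in FOSL2 they are spaced apart, and FOSB and FOSL1 have a lone core in the window.

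Libraries that stood apart bear on every result. Total expected counts, the number of reads that the RSEM program assigns to each gene, lay between 41050300 and 63886710 per library. The share of mitochondrially encoded RNA was 71.6% and 87.2% in free RNA of CBFB_KO and 1.26% to 20.8% elsewhere, leaving 13568123 and 5247853 counts on other genes in those 2 libraries and 43279838 or more in the others. The CBFB_KO poly libraries were almost alike, with a mean chi-square per gene of 2.255 between them, against 128.3 to 957.1 in the other 5 pairs. CBFB mRNA itself was present in every library, at 5.37 to 12.6 CPM (TMM-scaled counts, each library put on a common depth by edgeR's factors) in WT and 3.59 to 14.1 in CBFB_KO, and its level cannot check the knockout, since editing need not remove the transcript. Of 11 basal and epithelial markers, 6 reached 1 TPM (RSEM's abundance per length and depth) in every library and their summed TPM ran from 116 to 7038. The 2 luminal hormone receptor markers and the 2 endothelial markers found stayed under 1 TPM throughout, as did 4 of 6 fibroblast and 4 of 5 immune markers, whose summed TPM peaked at 2.86 and 26.3.

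Read per length and averaged over the 4 poly libraries, IER2, a short nuclear regulator induced by growth factors, was the most abundant member at 630 TPM, with 562 to 747 in single libraries. JUNB, a Jun protein that often restrains proliferation, followed at 392 TPM, FOS at 256, EGR1, a zinc finger transcription factor, at 214, JUN at 146 and JUND at 107. FOSL1, the Fos protein also called FRA1, stood at 80.5 TPM, FOSL2, or FRA2, at 17.2, the stress-induced repressor ATF3 at 9.19 and FOSB at 4.09. Pooled over genotypes, the ranges of neighbours met from JUNB down to JUND and from FOSL2 to ATF3, and did not meet between IER2 and JUNB, JUND and FOSL1, FOSL1 and FOSL2, or ATF3 and FOSB. Within single libraries the order held in all 4 except for FOS and EGR1: FOS was above EGR1 in WT (348 and 330 against 249 and 242 TPM) and below it in CBFB_KO (170 and 175 against 185 and 182 TPM). IER2 ranked 233rd and FOSB 7088th of the genes tested in this measure.

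**Figure D1:**
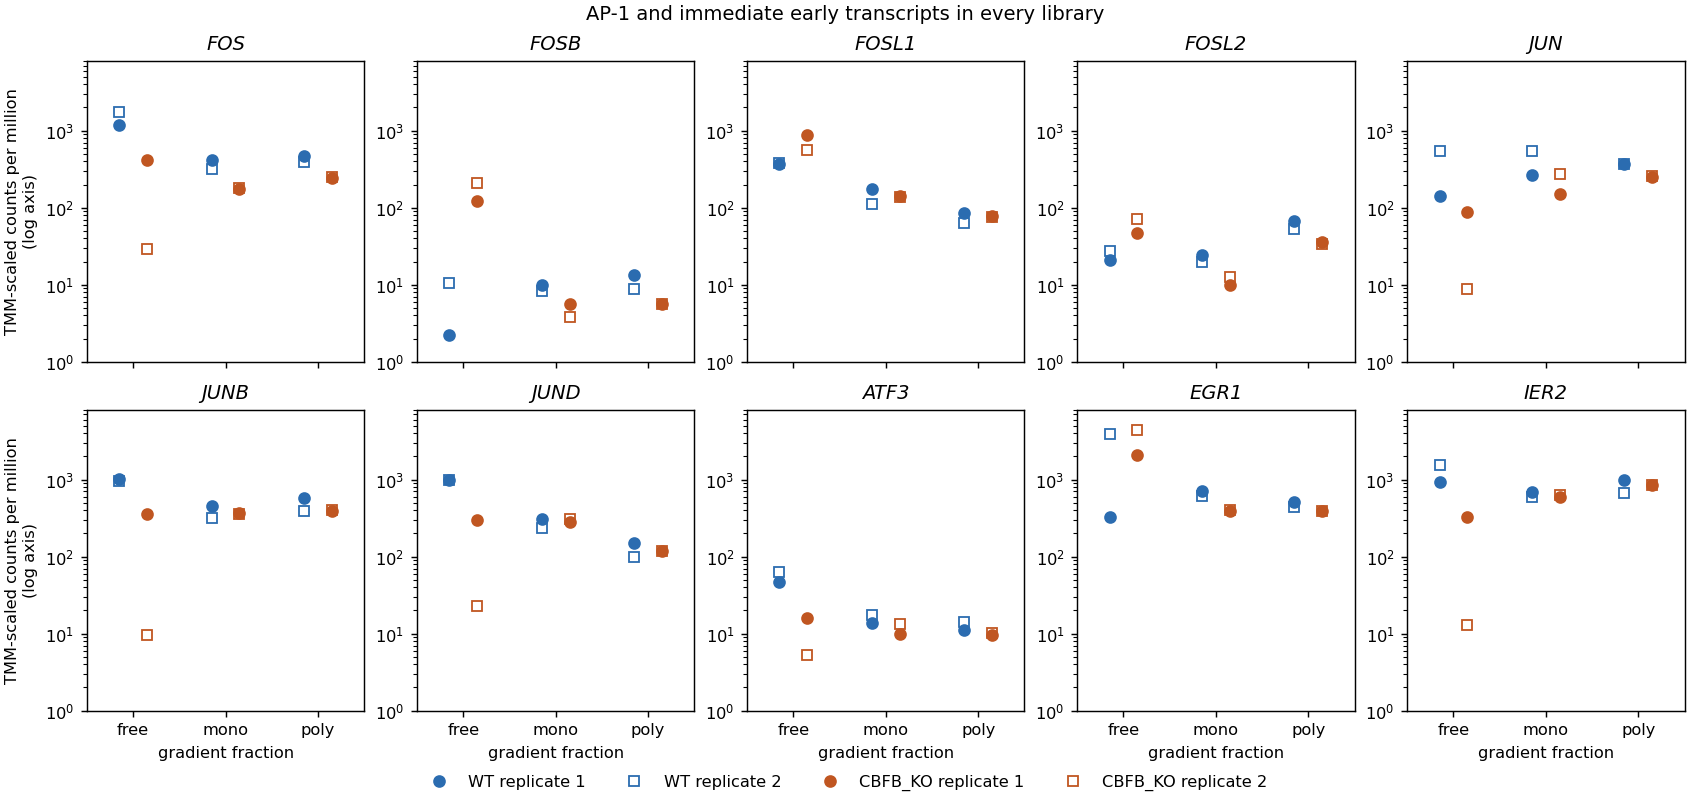
TMM-scaled CPM (vertical log axis) of each member in the free, mono and poly fractions (horizontal axis), 1 point per library, WT in blue and CBFB_KO in orange, filled circles replicate 1 and open squares replicate 2. In the free fraction FOSB rose from 2.21 and 10.7 in WT to 124 and 210 in CBFB_KO, while the second CBFB_KO free library held the lowest value of FOS, JUN, JUNB, JUND, ATF3 and IER2 in the series.

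The free fraction held the clearest differences between genotypes, and they split the members. FOSB and FOSL2 were higher in CBFB_KO, FOS, JUN, JUND, ATF3 and IER2 were lower, and FOSL1, JUNB and EGR1 did not pass the test. This is 2 of 10 members higher and 5 of 10 lower, against 24.2% and 18.1% of all genes tested (edgeR's quasi-likelihood test, Benjamini-Hochberg adjusted p under 0.05 over 16275 genes). The median log2 difference was -2.40 over the members and 0.04 over all genes. In bulk fractions, fewer cells and less RNA per cell cannot be told apart, and all values are relative to the other RNA of a library. How many of all genes kept the genotypes apart in free RNA was not counted. A lack of overlap given below for this fraction therefore only describes the values of the genes named.

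FOSB, a Fos protein whose truncated form is long-lived in the brain, had 2.21 and 10.7 CPM in the WT free libraries, from 155 and 830 counts, and 124 and 210 CPM in the CBFB_KO free libraries, from 2920 and 2074 counts. Both CBFB_KO libraries lay over 10 times above either WT library. The difference was 4.69 ± 0.70 on the log2 scale (SE, 25.9-fold, n = 2 against 2, adjusted p = 0.000745, edgeR). The call held under all 14 alternatives, with log2 values between 2.83 and 6.17 and adjusted p between 3.33e-13 and 0.0223. FOSB overlaps ERCC1, a DNA repair gene on the opposite strand, and whether the counting used strand is not stated. ERCC1 went the other way in these libraries, from 279 and 125 CPM in WT to 81.4 and 8.80 in CBFB_KO, where it had 1916.1 and 87.3 counts beside the 2920 and 2074 of FOSB. The part of ERCC1 reads in the FOSB counts was not tested.

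FOSL2 had 21.2 and 27.6 CPM in WT free and 46.8 and 72.1 in CBFB_KO free, without overlap, a log2 difference of 1.28 ± 0.38 (SE, adjusted p = 0.0220, edgeR). This call rested on how length and depth were treated. RSEM's mean length of the FOSL2 isoforms was 3277 and 2425 bases in WT free and 5329 and 5684 in CBFB_KO free. That length was 3380 and 5569 bases in WT mono, so it also varied within a group, and a change of isoforms was not tested. The length offset used the mean length of each gene over all libraries, so it does not follow such shifts. With that offset, which takes out each library's trend of CPM on gene length, the difference turned to -0.52 (adjusted p = 0.288, edgeR). Scaled by library size alone it was also -0.52 (adjusted p = 0.380). FOSL1 had 368 and 386 CPM in WT free and 890 and 569 in CBFB_KO free, also without overlap, but its log2 difference of 0.95 ± 0.39 missed the threshold (adjusted p = 0.0656, edgeR) and turned to -0.63 under library size alone. That scaling moved the median of all genes to -1.57, and relative to that median FOSB stood at 4.39, FOSL2 at 1.04 and FOSL1 at 0.94.

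FOS, the founding partner of JUN in AP-1, had 1168 and 1749 CPM in WT free and 416 and 28.9 in CBFB_KO free. JUN, which can also pair with itself, had 143 and 545 CPM in WT free and 88.6 and 8.70 in CBFB_KO free. JUND, the Jun protein least dependent on growth factor induction, had 998 and 993 CPM against 300 and 22.7. Neither genotype overlapped the other for these 3 genes, yet the CBFB_KO libraries differed from each other by 14.4-fold for FOS, 10.2-fold for JUN and 13.2-fold for JUND. The log2 differences were -2.71 ± 0.85 for FOS (adjusted p = 0.0268), -2.82 ± 0.92 for JUN (adjusted p = 0.0308) and -2.62 ± 0.83 for JUND (adjusted p = 0.0275, all edgeR).

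IER2 fell from 922 and 1544 CPM in WT free to 328 and 13.1 in CBFB_KO free, a log2 difference of -2.85 ± 0.98 (adjusted p = 0.0367, edgeR). ATF3, which dimerises with Jun proteins, fell from 47.1 and 63.8 CPM to 16.1 and 5.36, a log2 difference of -2.35 ± 0.50 (adjusted p = 0.00505, edgeR). JUNB had 1031 and 953 CPM in WT free and 352 and 9.51 in CBFB_KO free, 37.0-fold apart between the CBFB_KO libraries, and its log2 difference of -2.46 ± 1.03 missed the threshold (adjusted p = 0.0731, edgeR). Between those 2 libraries only 0.086% of the genes tested had a wider log2 gap than JUNB and 0.154% a wider gap than IER2. The values without the second CBFB_KO free library follow.

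Without the second CBFB_KO free library alone, the log2 differences were -1.80 for FOS, -1.95 for JUN and -1.49 for JUNB. They were -1.72 for JUND, -1.77 for ATF3 and -1.90 for IER2, and which members were called changed as well. Without replicate 2 of CBFB_KO in all 3 fractions FOSB was at 4.27 and the other members' calls were lost, while calls fell over all genes as well. The fit on the 4 free libraries alone called only FOSB (4.77), against 13.4% of all genes in that fit. The differences of the other members called above were about as large in that fit as in the full one, at -2.76 for FOS, -2.85 for JUN, -2.67 for JUND, -2.37 for ATF3, -2.90 for IER2 and 1.33 for FOSL2. Leaving out replicate 1 or replicate 2 of WT also lost calls, with FOSB at 3.97 and 6.17. The limit on strand given for FOSB also holds for IER2, which has an overlapping antisense transcript, and for JUNB, whose opposite strand holds HOOK2 (39 to 2353 counts per library, against 94 to 74113 for JUNB).

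EGR1 varied widely within WT. It had 324 and 3867 CPM in the WT free libraries, an 11.9-fold gap exceeded by 0.141% of genes, and 2085 and 4399 in CBFB_KO free. The log2 difference was 0.63 ± 0.78 with a 95% interval from -1.09 to 2.35 (adjusted p = 0.538, edgeR). Without WT replicate 2 it was 3.26 and passed the test, and without WT replicate 1 it was -0.26.

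**Figure D2:**
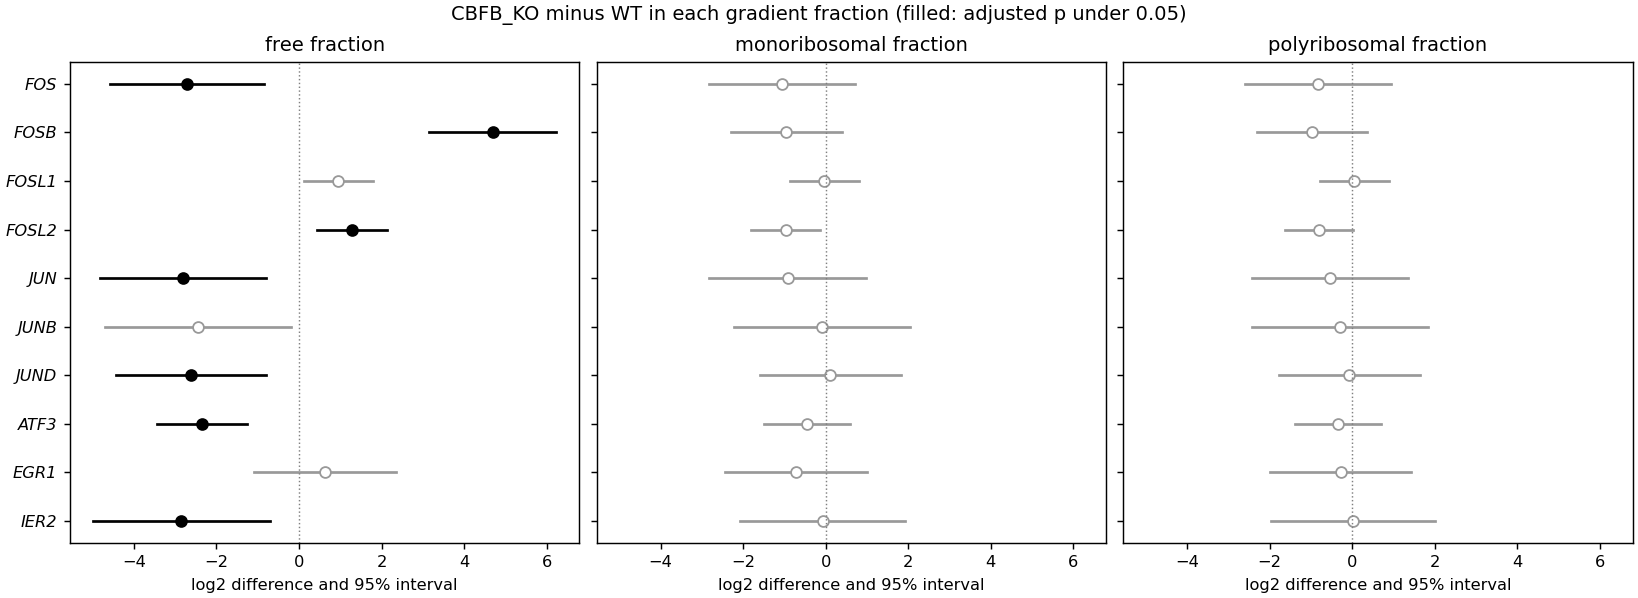
Log2 difference of CBFB_KO minus WT for each member with its 95% interval (horizontal axis) in the free, monoribosomal and polyribosomal fractions, n = 2 libraries per group, with filled points for adjusted p under 0.05. Differences ran from -2.85 to 4.69 in the free fraction, from -1.06 to 0.11 in mono and from -0.98 to 0.05 in poly, where no member was called.

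On ribosomes no member was called between genotypes. In the polyribosomal fraction 0 members passed the test by edgeR or DESeq2, and none had an unadjusted p under 0.05 by edgeR, against 0.19% of all genes called. The log2 differences lay between -0.98 and 0.05 with a median of -0.32, against -0.03 over all genes. These p-values draw on the spread of all 12 libraries, the free ones included. In the fit on the 4 poly libraries alone the smallest adjusted p were those of FOS (-0.84, adjusted p = 0.0649), JUN (-0.56, adjusted p = 0.0858) and FOSL2 (-0.82, adjusted p = 0.0909, all edgeR), and 0 members were called. In the monoribosomal fraction 0 members were called by either tool and 0.147% of all genes were called. FOSL2 was the 1 member with an unadjusted edgeR p under 0.05 there (adjusted p = 0.962, edgeR). The log2 differences there lay between -1.06 and 0.11 with a median of -0.58, against 0.03 over all genes.

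Within these small differences, 6 members, FOS, FOSB, FOSL2, JUN, ATF3 and EGR1, were lower in both CBFB_KO poly libraries than in either WT poly library, and none was higher in both. Over all genes tested 25% showed such a gap downwards. FOS had 473 and 393 CPM in WT poly and 241 and 247 in CBFB_KO poly, a log2 difference of -0.83 with a 95% interval from -2.59 to 0.94. FOSL2 had 68.0 and 53.2 CPM against 35.5 and 33.8, or -0.81 with an interval from -1.63 to 0.02. FOSB had 13.4 and 8.83 CPM against 5.67 and 5.61, or -0.98 with an interval from -2.32 to 0.35. JUN had 372 and 369 CPM against 253 and 257, or -0.54 with an interval from -2.43 to 1.35. All 4 intervals include 0, and the near identity of the CBFB_KO poly pair narrows what its 2 values say about replicates.

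In mono, 5 members, FOS, FOSB, FOSL2, ATF3 and EGR1, were lower in both CBFB_KO libraries than in either WT library, against 12.9% of all genes. FOS had 417 and 321 CPM in WT and 177 and 178 in CBFB_KO, a log2 difference of -1.06 with an interval from -2.83 to 0.71. EGR1 had 703 and 604 CPM against 391 and 402, or -0.72 with an interval from -2.44 to 1. The Jun genes other than JUN, and IER2 and FOSL1, overlapped between genotypes in both ribosomal fractions: FOSL1 had 84.7 and 63.8 CPM in WT poly and 78.7 and 74.9 in CBFB_KO poly, and IER2 had 998 and 662 against 840 and 837.

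Within WT cells the poly and free fractions were compared for each member alone, and no test compared members. FOSL1 was lower in poly than in free, with 84.7 and 63.8 against 368 and 386 CPM, a log2 difference of -2.34 ± 0.40 (SE, adjusted p = 0.00338, edgeR). JUND was lower by -3.02 ± 0.84 (148 and 98.5 against 998 and 993 CPM, adjusted p = 0.0271, edgeR) and ATF3 by -2.14 ± 0.49 (11.2 and 14.0 against 47.1 and 63.8 CPM, adjusted p = 0.0119, edgeR). FOSL1 lost its call under 2 of 14 alternatives, and JUND and ATF3 under 3 each. Under library size alone these genes were at -1.82, -2.49 and -1.60 and none was called. That scaling moved the median of all genes to 0.61. FOSL2 alone was higher in poly, with 68.0 and 53.2 against 21.2 and 27.6 CPM, or 1.31 ± 0.38 (adjusted p = 0.0317, edgeR). This call was lost under 9 of 14 alternatives, among them the length offset (0.49, adjusted p = 0.356), the replicate block within genotype (1.30, adjusted p = 0.0528) and the fit without WT replicate 1 (0.97). These 3 of 10 lower and 1 of 10 higher compare with 7.99% and 14.0% of all genes. FOS (-1.75), JUNB (-1.03), EGR1 (-2.13), IER2 (-0.57), JUN (0.11) and FOSB (0.79) did not pass the test.

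Within CBFB_KO cells 3 of 10 members were lower in poly than in free and 0 of 10 higher, against 16.7% and 14.6% of all genes. FOSB had 5.67 and 5.61 CPM in poly against 124 and 210 in free, a log2 difference of -4.89 ± 0.71 (adjusted p = 0.000679, edgeR). FOSL1 had 78.7 and 74.9 CPM against 890 and 569, or -3.25 ± 0.42 (adjusted p = 0.000345, edgeR), and EGR1 had 396 and 391 against 2085 and 4399, or -3.04 ± 0.84 (adjusted p = 0.0189, edgeR). JUN (2.39) and IER2 (2.30) were above 0 but missed the threshold, with adjusted p of 0.0644 and 0.0881 by edgeR. Under library size alone, which moved the median of all genes to 2.05, the values were -2.52 for FOSB, -1.12 for FOSL1 (adjusted p = 0.124) and -0.62 for EGR1 (adjusted p = 0.531), or -4.57, -3.17 and -2.67 relative to that median. The FOSB call was lost without CBFB_KO replicate 2 (-4.43, adjusted p = 0.0518). The EGR1 call was lost under 5 of 14 alternatives, among them the CBFB_KO poly pair counted as 1 sample (adjusted p = 0.11) and the fits without CBFB_KO replicate 1 (-3.47, adjusted p = 0.0869) or replicate 2 (-2.38, adjusted p = 0.321).

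The polyribosomal to free ratio compares these 2 distributions, and it draws on the same 8 libraries as the free and poly comparisons above. The ratio was lower in CBFB_KO for FOSB and FOSL2 and did not pass the test for the other 8 members. This is 2 of 10 lower and 0 of 10 higher, against 14.3% and 4.1% of all genes. FOSB changed by -5.67 ± 0.91 on the log2 scale (51.1-fold lower, 95% interval from -7.68 to -3.67, adjusted p = 0.00234, edgeR), and over the alternatives its value ran from -7.39 to -3.79 with adjusted p from 4.1e-11 to 0.0602. It lost its call only without CBFB_KO replicate 2 (-5.24). FOSL2 changed by -2.09 ± 0.54 (4.25-fold lower, adjusted p = 0.0226, edgeR), but by -0.27 with the length offset (adjusted p = 0.757). Under library size alone it was also at -0.27, and as that scaling moved the median ratio of all genes from -0.10 to 1.54, FOSL2 then stood at -1.81 relative to the median and FOSB at -5.33. The adjusted p of FOSL2 was 0.13 with the CBFB_KO poly pair counted as 1 sample and ran from 0.00141 to 0.79 over the alternatives.

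For 6 members, FOS (1.89), JUN (2.28), JUNB (2.16), JUND (2.55), ATF3 (2.01) and IER2 (2.87), the ratio was above 0 without passing the test. ATF3 came nearest, at 2.01 ± 0.68 with an adjusted p of 0.0586 by edgeR, and its 95% interval ran from 0.53 to 3.50. DESeq2 called 5 members in this comparison in place of 2, against 33.0% of all genes in place of 18.4%. Leaving out CBFB_KO replicate 1 rests the free fraction on the library with 87.2% mitochondrial counts. The 6 values above then ran from 3.08 to 6.57. Without CBFB_KO replicate 2 they ran from 0.96 to 1.92. The calls of FOSB and FOSL2 were then lost, while calls fell over all genes as well. FOSL1 (-0.91, 95% interval from -2.10 to 0.29) and EGR1 (-0.91, interval from -3.33 to 1.51) were below 0. Under library size alone they were at 0.69 and 1.03, or -0.85 and -0.50 relative to the shifted median of all genes.

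**Figure D3:**
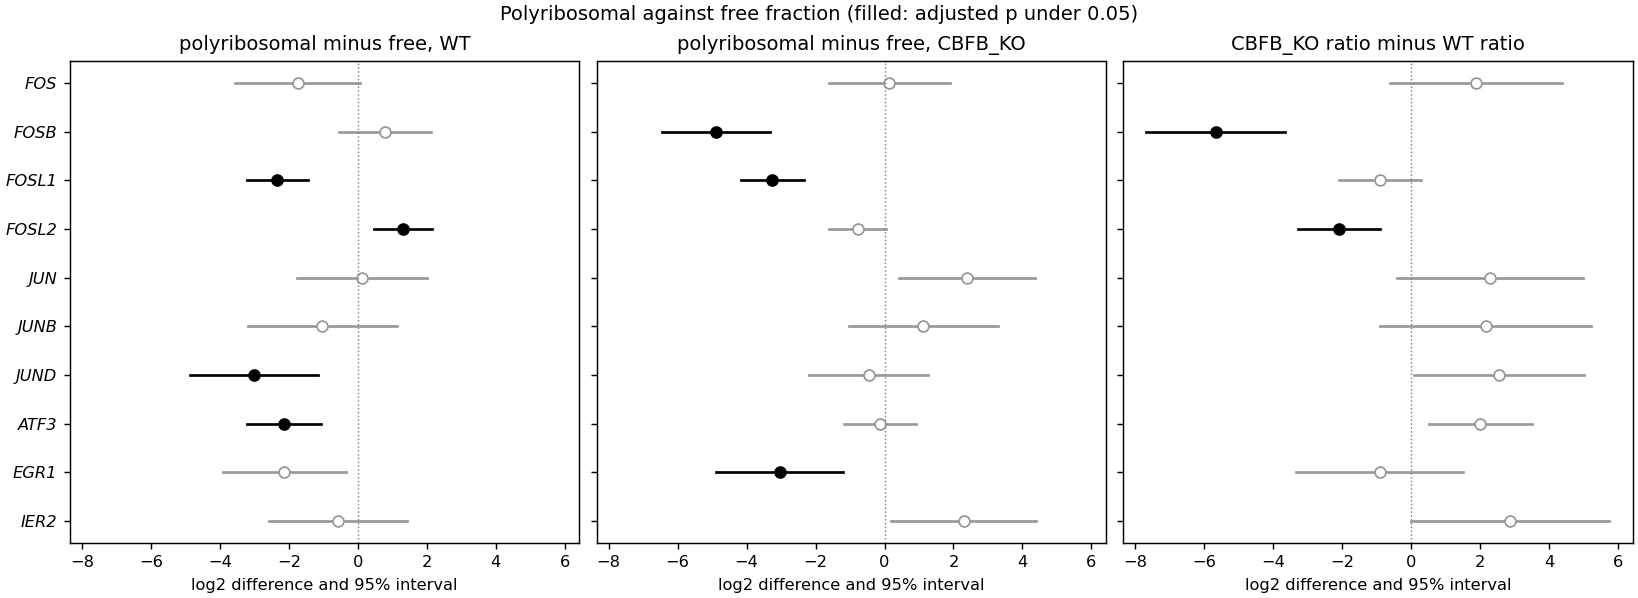
Log2 difference of the poly minus the free fraction in WT and in CBFB_KO, and the difference between these (CBFB_KO minus WT), for each member with its 95% interval on the horizontal axis, n = 2 libraries per group, filled for adjusted p under 0.05. FOSB (-5.67) and FOSL2 (-2.09) were the members called in the right panel, and FOSL1 was below 0 in both genotypes (-2.34 and -3.25).

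The monoribosomal to free ratio called FOSB (-5.65 ± 0.92, adjusted p = 0.00246, edgeR) and FOSL2 (-2.25 ± 0.54, adjusted p = 0.0175, edgeR), which is 2 of 10 lower and 0 of 10 higher against 14.2% and 4.87% of all genes, and it shares the free libraries with the ratio above. FOSL2 was at -0.39 in it with the length offset (adjusted p = 0.633) and at -0.53 under library size alone (-2.07 relative to the median of all genes), and its call was also lost without WT replicate 1 (-1.91, adjusted p = 0.112) and without CBFB_KO replicate 2 (-2.09, adjusted p = 0.183). The polyribosomal to monoribosomal ratio, which leaves the free fraction out, was called for no member. Its log2 values lay between -0.20 for JUNB and 0.44 for EGR1, the members had no unadjusted p under 0.05 by edgeR, DESeq2 called 0 of them, and 0.0% of all genes were called, with 1.01% at an unadjusted p under 0.05. The 95% interval was from -1.91 to 1.86 for FOSB, from -1 to 1.33 for FOSL2 and from -1.11 to 1.26 for FOSL1.

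Between poly and mono within a genotype, FOSL2 was the member called, higher in poly in both. It had 24.4 and 19.6 CPM in WT mono against 68.0 and 53.2 in WT poly, a log2 difference of 1.46 ± 0.38 (adjusted p = 0.0209, edgeR), and 9.96 and 12.5 in CBFB_KO mono against 35.5 and 33.8 in CBFB_KO poly, or 1.63 ± 0.39 (adjusted p = 0.0173, edgeR). That is 1 of 10 higher and 0 of 10 lower in each genotype, against 11% and 9.68% of all genes in WT and 8.2% and 8.66% in CBFB_KO. FOSL2 is the longest transcript of the group at 6708 bases, and over coding genes the median of this WT difference was 0.77 for transcripts above the upper quartile of length (4808 bases) and -0.70 for those below the lower quartile (1986 bases). With the length offset neither FOSL2 call remained.

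**Figure D4:**
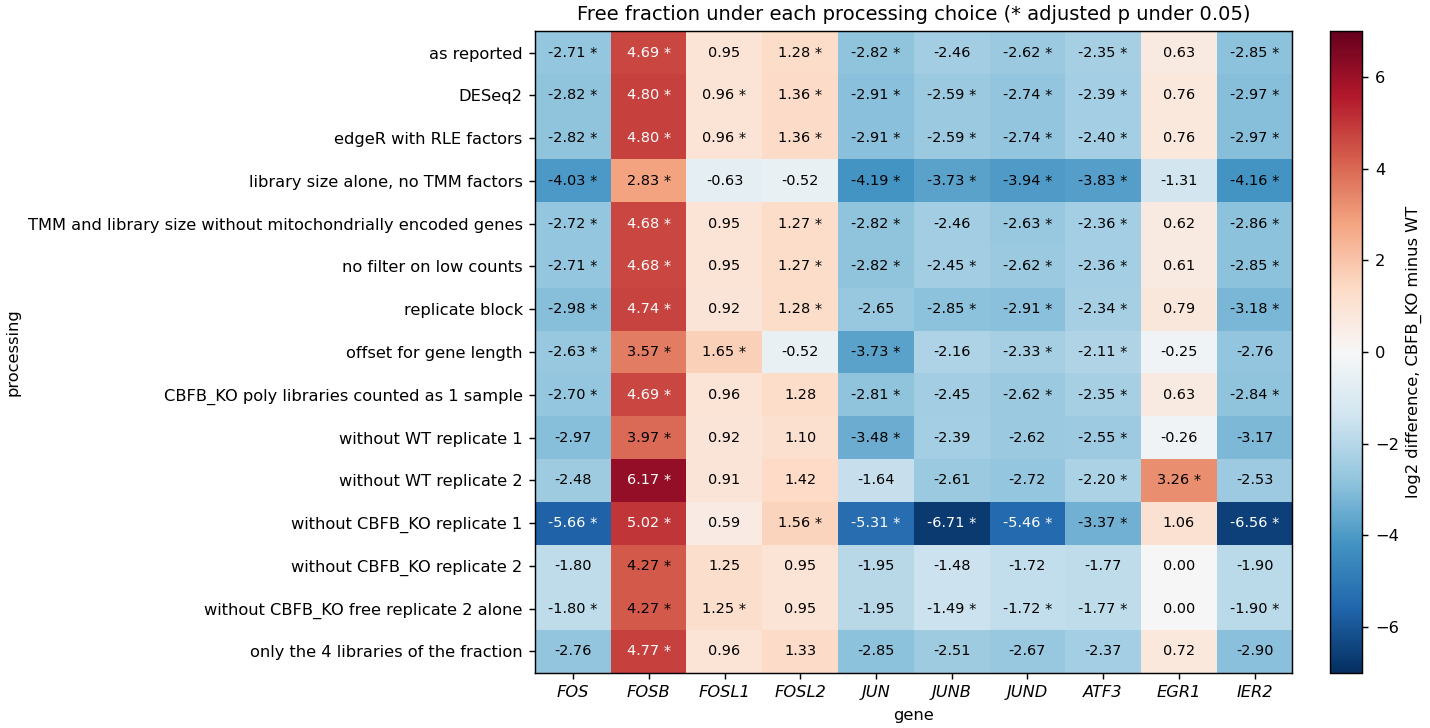
Log2 difference of CBFB_KO minus WT in the free fraction for each member (columns) under each processing choice (rows), with the value in each cell, colour for its size and an asterisk for adjusted p under 0.05. FOSB stayed between 2.83 and 6.17 with an asterisk in every row, while FOSL2, FOSL1 and EGR1 turned below 0 in the row for library size alone.

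The members also differed in the features of their transcripts, and these moved with the free fraction over all genes. JUN, JUNB, JUND and IER2 have a single exon in the main transcript, as do 2.34% of the coding genes tested, and the median free difference of such genes was -0.74 against 0.25 for genes with more exons. Transcripts above the upper quartile of length had a median free difference of 1.95 and those below the lower quartile -1.16. FOSL2 (6708 bases, free difference 1.28) lies above the upper quartile of 4808 bases. FOSL1 (1669 bases, 0.95), JUNB (1820 bases, -2.46) and JUND (1863 bases, -2.62) lie below the lower quartile of 1986 bases, and the other members lie between. Transcripts with GC content under the lower quartile (42.8%) had a median of 1.72 and those over the upper quartile (57.9%) -1.18. JUND has 69.7% GC, JUNB 64.9%, IER2 61.7% and FOSL1 60%, above that quartile, and the other members lie between 50.8% for ATF3 and 57.7% for FOSB. By AUUUA, genes with 3 or more had a median free difference of 1.46 and those with none -0.94, and among the members FOS (5 cores, -2.71) and FOSL2 (9 cores, 1.28) lay on opposite sides. A length offset was fitted, as given above, and a fit without mitochondrially encoded genes left FOS at -2.72 and FOSB at 4.68 in free RNA. Beyond these refits, the part of length, GC content and mitochondrial share in the members' values was not tested.

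Related genes were taken from lists chosen beside the members. Of 14 other basic leucine zipper genes that can join or rival AP-1, 12 were tested, and in the polyribosomal to free ratio 3 were lower in CBFB_KO and 0 higher, against 14.3% and 4.1% of all genes. These were ATF7 (-5.25), MAFG (-2.10) and NFE2L2 (-1.96), the activator of antioxidant genes, and the median over the list was 0.00 against -0.10 over all genes. In free RNA 3 of the 12 were higher and 4 lower, against 24.2% and 18.1% of all genes. Of 36 other immediate early genes, 35 were tested and 5 were lower in the ratio, against 14.3% of all genes, PER1 (-4.86), a circadian repressor, TRIB1 (-5.06), a pseudokinase, PHLDA1 (-2.57) and DUSP6 (-2.25), a MAP kinase phosphatase, among them, with 0 higher (4.1% of all genes) and a median of 1.09. In free RNA 7 were higher and 16 lower, against 24.2% and 18.1% of all genes, with a median of -1.28, and in mono and poly 0 were called by edgeR.

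Upstream of the members, 6 of 23 receptors, kinases and serum response factors were lower in the ratio and 0 higher, against 14.3% and 4.1% of all genes, with a median of -0.68. EGFR, the receptor for the EGF in the medium, changed by -6.35, RPS6KA3 by -5.62 and BRAF by -4.49. Their free levels were higher in CBFB_KO by 5.13, 5.69 and 4.18, and in poly EGFR had -1.23, RPS6KA3 0.07 and BRAF -0.31, none of them called. In all, 8 of the 23 were higher and 2 lower in the free fraction, against 24.2% and 18.1%. Of 15 proteins that bind AU-rich elements or degrade mRNA, 4 were lower in the ratio and 0 higher (14.3% and 4.1% of all genes), ZFP36L1 (-6.05), TIAL1 (-5.51), KHSRP (-3.74) and HNRNPD (-2.51), with a median of -1.58, and 10 were higher and 0 lower in the free fraction (24.2% and 18.1% of all genes).

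Among 18 genes known as AP-1 targets 14 were tested, and 4 were lower in the ratio with 0 higher, against 14.3% and 4.1% of all genes, and a median of -0.43. CD44 (-3.69) and CCND1 (-2.28), which encode an adhesion receptor and cyclin D1, were higher in the free fraction by 3.03 and 2.77. In all, 3 of the 14 were higher in that fraction and 3 lower, against 24.2% and 18.1% of all genes, with a median of -0.14. The lower ones were PLAU (-1.63), PLAUR (-1.92) and TIMP1 (-1.16). VIM, which encodes the intermediate filament vimentin, differed in kind: its ratio changed by -4.13, its free level by -0.29 without passing the test, and its poly level by -4.42 ± 0.47 (adjusted p = 0.00239, edgeR). In poly VIM was the 1 gene of this list called, against 0 members and 0.19% of all genes. Its level was low, at 7.51 and 10.7 CPM in WT poly and 0.402 and 0.449 in CBFB_KO poly. VIM was also lower in mono, with 2.3 and 1.59 CPM in WT and 0.204 and 0.138 in CBFB_KO.

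Over the 12 libraries, the genes whose log2 CPM was most like that of FOSL1 were PCOLCE (Pearson r = 0.987), HOXC10 (0.984), LSM12 (0.981), IL18BP (0.979) and CIDEB (0.979). For JUN they were RHPN1 (0.962), MED18 (0.938), UFSP1 (0.926), TCTN3 (0.924) and FAM83D (0.923). These are descriptions over a shared set of libraries, whose depth differs. Among the members, IER2 was about as close to JUN (0.92) as the fifth of these genes, and JUNB followed at 0.84.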

How the data were processed

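Per the labels and the submitters' processing notes, poly(A) RNA libraries (a TruSeq mRNA kit) were trimmed with Trimmomatic, aligned with STAR to hg19 and quantified with RSEM. Versions, annotation release and strand setting are not given in the sources used here. The deposited expected counts are unnormalized estimates per gene, and the authors' TPM and FPKM are RSEM's values per length and depth. FPKM was not used. RSEM's gene lengths, averaged over the libraries, gave the length offset, which takes out each library's trend of log2 CPM on gene length.

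Expected counts were rounded and fitted with edgeR 4.0.16 in R 4.3.3 by quasi-likelihood (TMM factors, filterByExpr, 1 mean for each of the 6 groups, all 12 libraries), with Benjamini-Hochberg adjustment over the 16275 genes tested and a threshold of 0.05. Values are log2 differences with SE and 95% intervals. DESeq2 1.42.0 and other scalings, filters, blocks and left-out libraries were alternatives. With 1 sample left in an arm, it is assumed to vary like the other groups. Transcript features, gene positions and 3′ UTR sequences came from GENCODE 29 (GRCh38), matched by gene ID. Of 50276 genes with a symbol, all listed genes but 1 endothelial marker were found.

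All 10 members were to be described. From each of the 5 other lists up to 4 genes with the smallest adjusted p in the polyribosomal to free ratio were named, of which 2 are not reported here. For FOSL1 and JUN the 5 genes most like them were named, by Pearson r of log2(CPM + 0.5). The members and lists were chosen with earlier results of these data known. A count of 3 allows between 4.7e-06% and 7.31e-06% of a library, for counting error only.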

Additional observations from a re-analysis of the deposited data

Results flagged for a closer look

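The polyribosomal to free ratio differed between genotypes, by the test of the difference itself, for FOSB (-5.67 on the log2 scale, CBFB_KO minus WT) and FOSL2 (-2.09). The monoribosomal to free ratio differed for the same genes, FOSB (-5.65) and FOSL2 (-2.25), and shares the free libraries. With the length offset FOSL2 was at -0.27 in the first ratio and -0.39 in the second, and neither passed the test. Groups of 2 libraries are too small for a test of single outlying libraries.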

How the results depend on the processing

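Depth outside the mitochondrial genome was lowest in the CBFB_KO free libraries, at 13568123 and 5247853 counts. The part of this depth in the members' values was not tested. The members called in mono, in poly and in the polyribosomal to monoribosomal ratio stayed at 0 under all 14 alternatives. In the polyribosomal to free ratio DESeq2 gave 5 calls and no filter 7, against 33.0% and 18.7% of all genes. Calls there also moved when a replicate was left out or the CBFB_KO poly pair counted as 1 sample. For the other comparisons but the free fraction, the share of all genes under each setting was not taken. Their counts below show only that calls moved. In the monoribosomal to free ratio DESeq2 gave 5, no filter 6, and leaving out a replicate 0 to 8. In the free fraction the 4 libraries alone gave 1 call, against 13.4% of all genes in that fit, and calls moved when a replicate was left out. For poly against free in WT, library size alone gave 1 and leaving out a replicate 1 to 6. In CBFB_KO, DESeq2 gave 6, against 6643 of all genes tested. Library size alone gave 5 and no filter 5, and calls moved when a replicate was left out. For poly against mono in WT and CBFB_KO, DESeq2 gave 2 and 2, against 4812 and 4408 of all genes tested, and the length offset 0 and 0. Calls there also moved with the poly pair as 1 sample or a replicate left out.

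Library size alone moved the median of all genes from -0.10 to 1.54 in the polyribosomal to free ratio and from 0.04 to -1.57 in the free fraction, and relative to these medians FOSL1, FOSL2 and EGR1 did not change sign. As fitted, signs turned in the polyribosomal to free ratio for FOSL1 (0.69) and EGR1 (1.03) under library size alone, and for EGR1 with the length offset (0.0039) and without a replicate (-3.61 to 0.08). Free levels turned under library size alone for FOSL1 (-0.63), FOSL2 (-0.52) and EGR1 (-1.31), with the length offset for FOSL2 (-0.52) and EGR1 (-0.25), and without a replicate for EGR1 (-0.26 to 3.26). In poly they turned without a replicate of WT for JUNB (-0.51 to 0.009), JUND (-0.29 to 0.25), FOSL1 (-0.10 to 0.26) and IER2 (-0.21 to 0.34), and for IER2 by DESeq2 and RLE factors (-0.00096 each). Beyond the median shift, the cause was not tested. Library size alone moved the share of higher among all calls in the free fraction from 57.3% to 16.5% and in the polyribosomal to free ratio from 22.3% to 82.3%.

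The labels do not say whether replicate numbers pair the samples. Deviations of same-numbered libraries correlated at -0.127 to 0.238, over 0.1 in 4 of 15 pairs of groups. These values cannot decide the pairing, since spread particular to each fraction can hide a shared deviation. With the replicate block 2, 0, 2, 7, 0 and 0 members were called in the 3 ratios and in free, mono and poly, as without it, although in free RNA JUN lost its call (-2.65) and JUNB gained one (-2.85), and 4, 3, 1 and 1 within the genotypes. With the replicate block within genotype, which treats the 3 fractions of a number as 1 gradient, FOSL2 lost its call in poly against free in WT (1.30, adjusted p = 0.0528), leaving 3 calls, and the other counts were as reported.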
